A study of Mus musculus with 6 samples.

Results

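The genes described here encode the voltage-gated channels for potassium, calcium and sodium, the other potassium channels, and the subunits that travel with them. They were taken from a RefSeq table of the mouse build GRCm38.p6 (mm10) as every protein-coding gene whose symbol begins with Kcn, with Cacn, or with Scn and a digit. A single Kcn gene, Kcnu1, was left out by name although its symbol meets that rule. There were 133 such genes of 21887 protein-coding genes, of which 93 were potassium, 26 calcium and 14 sodium channel genes.

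The data were MNase-seq of mouse sperm, collected from epididymis and vas deferens. Micrococcal nuclease (MNase) cuts DNA that is not held by nucleosomes, and most sperm DNA is packed by protamines, so the mononucleosome-sized DNA that survives marks places where histones were kept. Of the 6 libraries, 2, K49A 1 and K49A 2, came from mutant mice in which a lysine of protamine 1 is exchanged for alanine (K49A), and 4, WT 1 to WT 4, came from wild-type C57BL6 mice. All were prepared the same way per the labels' protocols. DNase I removed loose DNA, DTT opened the chromatin, and MNase was added at 5 units and then at 15 units. No source used here gives the age of the mice or how many animals stand behind a library, so the spread between libraries may be partly technical. The files are lists of enriched regions (peaks), 1 list per library, so they hold neither RNA, by which the label of sperm could be checked, nor bases, by which the substitution could be.

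Ion channels are membrane proteins whose pore lets a chosen kind of ion through. Potassium channels bring a cell back to rest, sodium channels start the action potential of nerve and muscle, and calcium channels turn a change in voltage into secretion, contraction or a change in transcription. The pore subunit carries the current, and auxiliary subunits set where and how fast it opens. Most of these genes are known for their work in brain, heart, muscle and epithelia, and the main calcium channel of sperm itself, CatSper, has other gene symbols.

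A gene was said to have an end peak in a library if a peak overlapped, by at least 1 bp, the window from 1 kb before to 1 kb after either of its annotated ends. It had an interior peak if a peak had its midpoint inside the gene and touched neither window. Counts over all genes include the channel genes. The promoters below show the DNA on which the end peaks lay. They are the RefSeq sequences of GRCm38.p6, 300 bases each, from 250 bases before the annotated start to 50 bases after it, 5′ to 3′ along the gene, with every CG dinucleotide in capitals. They show, for each class, the member with the highest-ranked end peak among those with a peak within 1 kb of the start in each WT library and in no K49A library, and then the first member by symbol with no peak in any library. Only genes whose RefSeq start is also the outer end of the gene were taken. Kcnd2 is at chr6:21215096-21215395 (plus strand) and holds 26 CG. Kcna10 is at chr3:107182893-107183192 (plus strand) and holds 0. Cacna1i is at chr15:80286988-80287287 (plus strand) and holds 23. Cacna1f is at chrX:7606853-7607152 (plus strand) and holds 5. Scn4b is at chr9:45138374-45138673 (plus strand) and holds 26. Scn7a is at chr2:66784861-66785160 (minus strand) and holds 3.
Kcnd2: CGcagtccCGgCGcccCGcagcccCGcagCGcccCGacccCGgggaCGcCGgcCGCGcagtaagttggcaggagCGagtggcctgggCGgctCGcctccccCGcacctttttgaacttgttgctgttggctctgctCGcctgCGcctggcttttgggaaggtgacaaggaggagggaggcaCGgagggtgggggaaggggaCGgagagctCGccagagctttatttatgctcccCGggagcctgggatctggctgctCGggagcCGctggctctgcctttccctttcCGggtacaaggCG
Kcna10: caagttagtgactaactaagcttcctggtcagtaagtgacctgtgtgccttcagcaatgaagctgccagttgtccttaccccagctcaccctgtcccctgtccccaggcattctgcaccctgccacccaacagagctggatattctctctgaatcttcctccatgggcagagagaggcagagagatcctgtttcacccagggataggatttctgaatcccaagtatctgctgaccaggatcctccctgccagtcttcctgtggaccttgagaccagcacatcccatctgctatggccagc
Cacna1i: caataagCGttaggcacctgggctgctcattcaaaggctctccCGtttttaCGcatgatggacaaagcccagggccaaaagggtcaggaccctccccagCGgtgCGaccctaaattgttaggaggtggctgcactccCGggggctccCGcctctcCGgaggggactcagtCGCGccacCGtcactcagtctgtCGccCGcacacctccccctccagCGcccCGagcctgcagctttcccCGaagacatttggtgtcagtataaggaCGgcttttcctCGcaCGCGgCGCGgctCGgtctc
Cacna1f: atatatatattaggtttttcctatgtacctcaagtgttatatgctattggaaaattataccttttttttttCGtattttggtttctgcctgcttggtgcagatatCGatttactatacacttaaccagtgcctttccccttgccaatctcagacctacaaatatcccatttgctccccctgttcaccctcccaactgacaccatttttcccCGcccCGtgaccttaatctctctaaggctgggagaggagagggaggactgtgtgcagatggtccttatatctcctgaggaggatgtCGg
Scn4b: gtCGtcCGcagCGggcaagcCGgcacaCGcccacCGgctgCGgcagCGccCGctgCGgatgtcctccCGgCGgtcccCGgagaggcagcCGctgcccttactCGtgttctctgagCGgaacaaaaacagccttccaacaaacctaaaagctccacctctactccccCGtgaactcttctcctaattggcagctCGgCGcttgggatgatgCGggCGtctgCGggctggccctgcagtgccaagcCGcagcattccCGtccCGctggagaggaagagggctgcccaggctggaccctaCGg
Scn7a: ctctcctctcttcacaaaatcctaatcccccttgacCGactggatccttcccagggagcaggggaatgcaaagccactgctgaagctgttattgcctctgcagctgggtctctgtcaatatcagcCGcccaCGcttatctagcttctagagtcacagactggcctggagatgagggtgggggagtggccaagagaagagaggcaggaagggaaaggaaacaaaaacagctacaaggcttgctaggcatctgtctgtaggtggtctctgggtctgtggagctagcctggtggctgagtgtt
In each class the promoter with peaks held more CG than the one without. Peaks covered bases of the printed Kcnd2 and Scn4b promoters in all 4 WT libraries and of the Cacna1i promoter in WT 1, WT 2 and WT 3. In WT 4 the Cacna1i peak began just past the last printed base. None of the 6 promoters was touched by a K49A peak.

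End peaks stood at few channel genes in K49A sperm and at many in WT sperm. A single member had an end peak in each K49A library, Kcnh8 in K49A 1 and Kcnc1 in K49A 2, where 0.429% and 0.334% of all protein-coding genes had one. End peaks were found at 50, 75, 74 and 80 of the 133 members in WT 1 to WT 4, where 28.8%, 43%, 46.3% and 49.9% of all genes had one. As a share of members this was 0.752% in both K49A libraries, against 37.6%, 56.4%, 55.6% and 60.2% in WT. The mean was 0.752% in K49A (n = 2) and 52.4% ± 10.1 in WT (SD, n = 4), and the groups did not overlap. The lists themselves differed in length, with 700 and 1017 peaks in K49A and 11313, 20458, 22237 and 27903 in WT, and the read depth behind them is unknown. When each list was held to its 700 strongest peaks, end peaks stood at 1 and 0 members in K49A 1 and 2 and at 4, 6, 5 and 1 in WT 1 to 4. For these few members the groups met at WT 4, and the difference shrank to -2.63 percentage points from -51.7. Over all genes the shares were then 0.429% and 0.233% in K49A 1 and 2, and 2.13%, 1.52%, 1.62% and 1.91% in WT 1 to 4. Those did not overlap. What part the length of the lists had in the difference was not tested.

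**Figure D1:**
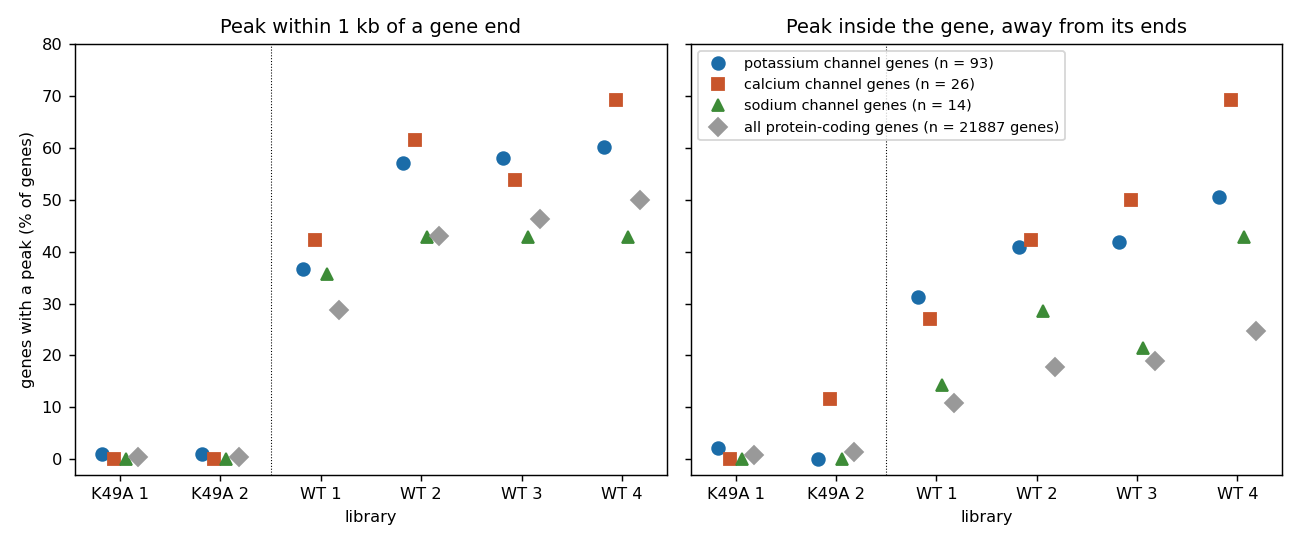
Share of potassium, calcium and sodium channel genes and of all protein-coding genes with a peak within 1 kb of a gene end (left) and inside the gene away from its ends (right), in percent of genes, with a point for each class and library. End peaks lie at or under 1.08% in both K49A libraries for every class, while WT 1 to WT 4 lie between 28.8% and 69.2%.

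Channel genes carried end peaks more often than protein-coding genes as a whole in every WT library. The difference was 8.80, 13.4, 9.33 and 10.3 percentage points in WT 1 to 4, a mean of 10.5 ± 2.06 (SD, n = 4). Against genes of like length the difference was 18.5 points under 10 kb, and 2.34, 1.46 and -2.04 points in the 3 longer strata described with gene length, each of these 3 within the spread between libraries. End peaks stood at 53.0% ± 11.0 of potassium, 56.7% ± 11.5 of calcium and 41.1% ± 3.57 of sodium channel genes in WT (SD, n = 4), against 42.0% ± 9.23 of all genes. Potassium genes with an end peak numbered 34, 53, 54 and 56 of 93 in WT 1 to 4, calcium genes 11, 16, 14 and 18 of 26, and sodium genes 5, 6, 6 and 6 of 14. Potassium minus calcium was -3.77 ± 5.65 points, with potassium higher in 1 of 4 libraries, so these classes were not set apart beyond the spread between libraries. Potassium minus sodium was 11.9 ± 7.48 points and calcium minus sodium 15.7 ± 8.72 points, both above 0 in 4 of 4 libraries. A single sodium gene weighs 7.14 points, and potassium minus sodium in WT 1 was 0.845 points, less than that weight. Both differences with sodium turned negative among the 700 strongest peaks, at -4.99 and -3.30 points. They also differed between strata of gene length. From 10 to 30 kb sodium was highest, with end peaks at 68.8% of 4 sodium, 41.3% of 23 potassium and 41.7% of 6 calcium genes. These 4 sodium genes were the 4 beta subunit genes, and the sodium pore genes were all 48.0 kb or longer. Among sodium genes, length and subunit role therefore cannot be told apart. From 30 to 100 kb, and from 100 kb upward, sodium was lowest.

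Counted gene by gene, 42 members had an end peak in each WT library and in no K49A library, where 21.8% of all genes did. They were 26 potassium, 11 calcium and 5 sodium channel genes. Kcnh8 and Kcnc1, the 2 members with a K49A end peak (at least 1 such peak stood at 0.626% of all genes), had end peaks in all 4 WT libraries as well, which made 44 members, where 22.2% of all genes did. Another 24 members had an end peak in 3 WT libraries, where 15.3% of all genes did. No end peak was found in any library at 41 members, beside 40.1% of all genes, and these were 26 potassium, 7 calcium and 8 sodium genes. No member had one in all 6 libraries, beside 0.11% of all genes. No peak at all, at an end or inside, was found at 15 members, beside 29.8% of all genes. Peaks covered more of the gene and of 1 kb either side in every WT library than in either K49A library at 69 members, where 29.2% of all genes did so. They covered more in both K49A than in every WT library at 0 members, beside 0.0183% of all genes. Covered length was not matched for gene length, and members had a median length of 42.7 kb against 17.2 kb for all genes. An exact permutation test that deals the 6 libraries into 4 and 2 in all 15 ways cannot give a two-sided p under 0.133, so no gene could pass. The smallest Benjamini-Hochberg adjusted p over 21887 genes was 0.457 by this exact test, and 0 genes had an unadjusted p under 0.05.

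**Figure D2:**
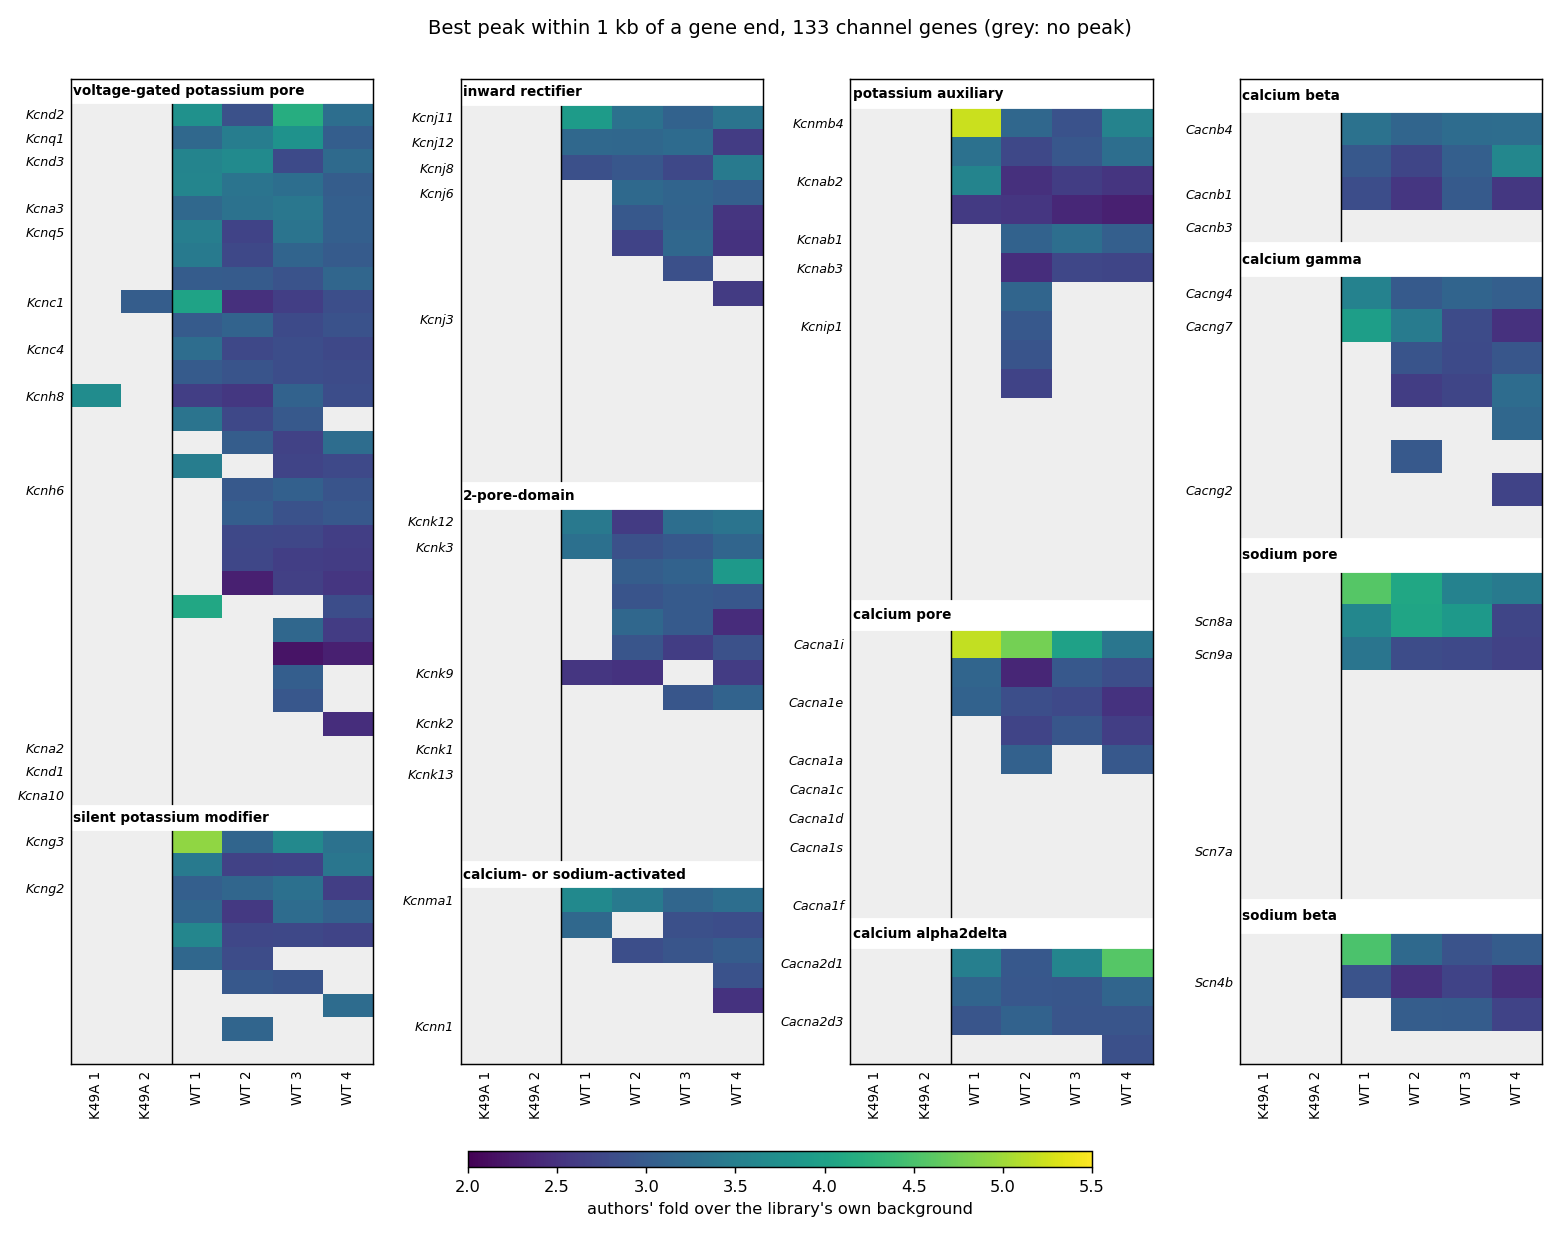
The authors' fold over background of the strongest end peak at each of the 133 channel genes (rows, grouped by role, with some rows labelled) in each library (columns, K49A left of the line and WT right of it); grey marks no peak. Kcnh8 and Kcnc1 are the coloured cells in the K49A columns, and most rows that hold no colour in K49A hold some in WT.

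The fold given for a peak is the authors' value over that library's own background and is used here only to describe peaks within a list, not to compare genotypes. Strength is also given as a percentile, the rank of a gene's best end peak by −log10 q among all peaks of its list. Genes are named below by a set rule, and other members named beside the counts of a role group were picked after their values were seen.

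The potassium pores opened by voltage are the largest group. Of these 30 genes 13 had an end peak in all 4 WT libraries, 8 in 3, 6 in 1 or 2 and 3 in none, a mean of 70.8% ± 13.7 per WT library (SD, n = 4). Over all genes 22.2% had one in all 4 WT, 15.3% in 3 and 40.1% in no library, a mean of 42.0% ± 9.23. Kcnd2 and Kcnd3, the pores of the fast-inactivating A-type current, were among the 13. Kcnd2 had no peak in either K49A library and folds of 3.78, 2.87, 4.18 and 3.27 in WT 1 to 4. Kcnd3 likewise had none in K49A and folds of 3.58, 3.67, 2.79 and 3.20 in WT. The Kcnd2 peak of WT 4 ran over chr6:21214593-21215772, across the printed promoter and on both sides of the start. Kcna3, a Shaker-type channel that sets the membrane potential of T lymphocytes, had no K49A peak and even folds across WT, of 3.19, 3.31, 3.39 and 3.06. Its percentile was less even, from 65.9 in WT 1 to 97.7 in WT 3. Kcnc4, a channel of the fast-activating Shaw type, had none in K49A and 3.25, 2.76, 2.82 and 2.76 in WT. Kcnq5 belongs to the family of the M current, which steadies the resting potential. It had none in K49A and folds of 3.50, 2.70, 3.35 and 3.05 in WT. The 3 pores with no end peak in any library were Kcna2, Kcna10 and Kcnd1.

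The 2 pores with an end peak in K49A differed in how that peak lay against WT. Kcnh8, of the ether-a-go-go family, had a peak of 255 bp at chr17:52602297-52602551 in K49A 1 with a fold of 3.70 and none in K49A 2, and its WT folds were 2.65, 2.56, 3.10 and 2.83. Peaks of 3 WT libraries overlapped the K49A 1 peak there. Kcnc1, which lets fast-spiking neurons fire at high rates, had a 200 bp peak at chr7:46395088-46395287 in K49A 2 with a fold of 3.03 and none in K49A 1. Its WT folds were 4.02, 2.49, 2.65 and 2.84, but none of those WT peaks overlapped the K49A 2 peak. The WT peaks lay at the gene start, for example at chr7:46396421-46397764 in WT 4, while the K49A 2 peak touched only the outer edge of the window.

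Silent modifiers are pore-like subunits that form channels only with a partner. Of 10 such genes 5 had end peaks in all 4 WT libraries, 4 in 1 or 2 and 1 in none, 65.0% ± 10 per WT library (SD, n = 4). Among all genes 22.2% had them in all 4 WT and 40.1% in no library. Kcng3 ranked highest of the potassium genes with end peaks in all 4 WT libraries, with a mean percentile of 94.8, no K49A peak and WT folds of 4.92, 3.14, 3.65 and 3.32. Its peak spanned chr17:83630880-83632559 in WT 4. Kcng2 had no K49A peak and WT folds of 3.06, 3.15, 3.30 and 2.65.

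Potassium channels not opened by voltage alone, and the auxiliary subunits, were counted in the same way, at the outer ends of the gene. Beside these counts, 22.2% of all genes had end peaks in all 4 WT, 15.3% in 3 and 40.1% in no library. The mean over all genes was 42.0% ± 9.23 per WT library, and the mean of each group below lay within that spread. Inward rectifiers, which hold the resting potential and include the channels closed by ATP, had end peaks in all 4 WT libraries at 3 of 15 genes (Kcnj8, Kcnj11 and Kcnj12), in 3 at 3, in 1 or 2 at 2 and in none at 7, 38.3% ± 12.6 per WT library. The 2-pore-domain leak channels had them in all 4 WT at 2 of 14 genes (Kcnk3 and Kcnk12), in 3 at 5, in 1 or 2 at 1 and in none at 6, 44.6% ± 15.8. Of those 6, Kcnk1, Kcnk2 and Kcnk13 had a peak within 1 kb of an inner listed start in all 4 WT. Channels opened by calcium or sodium ions had them in all 4 WT at 1 of 7 genes, in 3 at 2, in 1 or 2 at 2 and in none at 2, 42.9% ± 20.2 (SD, n = 4 for each group). That 1 gene was Kcnma1, the pore of the large-conductance channel opened by voltage and calcium together. Kcnma1 had no K49A peak and folds of 3.66, 3.45, 3.16 and 3.26 in WT. Potassium auxiliary subunits had end peaks in all 4 WT at 4 of 17 genes, in 3 at 2, in 1 or 2 at 4 and in none at 7, 38.2% ± 14.8 per WT library. Kcnmb4, the beta subunit that joins Kcnma1 in neurons, had no K49A peak and WT folds of 5.22, 3.16, 2.89 and 3.57, so that WT 1 stood well above the other WT libraries.

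Calcium channel genes encode the pore and its auxiliary subunits. Beside the counts below, 22.2% of all genes had end peaks in all 4 WT, 15.3% in 3 and 40.1% in no library. The 10 pores, which set the current type, had end peaks in all 4 WT libraries at 3, in 3 at 1, in 1 or 2 at 1 and in none at 5, 42.5% ± 9.57 per WT library. The 4 alpha2delta genes, whose products carry the pore to the membrane, had them in all 4 WT at 3 and in 1 at 1, 81.3% ± 12.5, and the 4 beta genes, whose products sit under the pore, had them in all 4 WT at 3 and in none at 1, 75.0% ± 0. The 8 gamma genes had them in all 4 WT at 2, in 3 at 2, in 1 or 2 at 3 and in none at 1, 53.1% ± 21.3 (SD, n = 4 for each group). Cacna1i, a pore of the T-type current that opens near the resting potential, ranked highest of all members with end peaks in all 4 WT libraries, with a mean percentile of 98.2. Cacna1i had no K49A peak and WT folds of 5.17, 4.77, 4.0 and 3.37, a mean of 4.33 ± 0.81 (SD, n = 4). Its peaks were short and lay at or just past the start, which is at 80287238. The WT 3 peak, chr15:80287187-80287795, covered the start, and those of the other WT libraries began past it, in WT 4 at 80287297.

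None of the other 5 calcium genes that the naming rule took had a K49A peak at an end. Cacna2d1, the subunit that binds gabapentin, had WT folds of 3.51, 2.97, 3.59 and 4.58, and Cacna2d3 had 2.92, 3.10, 2.92 and 2.93. Cacnb4, the beta subunit mutated in the lethargic mouse, had 3.32, 3.14, 3.23 and 3.25, the smallest spread of these 5 (SD 0.07, n = 4). Cacng4 and Cacng7, subunits best known as partners of AMPA receptors, had 3.55, 2.99, 3.13 and 3.06 (Cacng4) and 3.96, 3.45, 2.80 and 2.50 (Cacng7). The best Cacng7 peak lay at the start in WT 1, WT 3 and WT 4 but at the finish in WT 2, at chr7:3365989-3367422.

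At their outer ends, sodium pore genes had peaks either in all 4 WT libraries or in none. End peaks stood at 3 of 10 pore genes in all 4 WT and at 7 in none, 30.0% ± 0 per WT library, and of the 4 beta subunit genes 2 had them in all 4 WT, 1 in 3 and 1 in none, 68.8% ± 12.5 (SD, n = 4). Beside this, 22.2% of all genes had them in all 4 WT and 40.1% in no library. Interior peaks did not follow this split. All 4 WT had one at 1 pore gene, and no WT library had one at 3. Scn8a, found at the axon initial segment and nodes, had no K49A peak and WT folds of 3.62, 4.05, 3.88 and 2.73. Its best peak lay at the start in WT 1 to 3 and at the finish in WT 4, at chr15:101046338-101046889. Scn9a, the pore of pain-sensing neurons, had no K49A peak and WT folds of 3.36, 2.82, 2.78 and 2.69, but a low mean percentile of 28.2.

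Neighbouring channel genes were often unlike in their end peaks, but whether more often than other genes was not tested. Over all genes 22.2% had end peaks in all 4 WT, 15.3% in 3 and 40.1% in no library. In the run of 5 sodium pores over chr2:65457118-66784910 an end peak stood at Scn9a in all 4 WT libraries and at none of the other 4. Of the 3 Kcna genes on chromosome 3, Kcna3 had one in all 4 WT, and Kcna2 and Kcna10 had none. Kcna2 did have a peak within 1 kb of an inner listed start in all 4 WT, so it differed from Kcna3 only at the outer ends. All 3 Kcna genes on chromosome 6 had end peaks in 3 WT libraries. Of the Cacng genes, the 3 on chromosome 7 had them in 4 WT (1 gene) or in 3 WT (2 genes), and the 3 on chromosome 11 in 4 WT, in 1 WT and in none (1 gene each). Of the 3 members on the X chromosome none had an end peak in all 4 WT libraries, where 22.2% of all genes did. With 3 genes this cannot be read as a trait of the X chromosome.

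The end peaks lay more at starts than at finishes. For 48 members the table of promoters gives a start that is also the outer end of the gene, so that start and finish can be told apart. In WT an end peak lay at the start of 42.2% ± 11.6 of them and at the finish of 5.73% ± 2.62, against 36.2% ± 7.83 and 4.48% ± 1.54 of 10583 genes treated alike (SD, n = 4). The promoter table matched 99 members, with 135 starts, 24 of the members having more than 1. In WT a peak within 1 kb of a listed start stood at 58.3% ± 8.59 of these 99 genes, 59.1% ± 9.49 of the potassium, 70.0% ± 10.8 of the calcium and 30.0% ± 0 of the sodium genes, against 43.0% ± 9.05 of 17492 genes in all (SD, n = 4). All 4 WT libraries had one at 41 of the 99, where 23.5% of all genes did, and 40 of these had none in K49A, where 23.2% of all genes did. No WT library had one at 28, where 39.5% of all genes had none. At least 1 K49A library had one at 1 member, beside 0.475% of all genes.

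**Figure D3:**
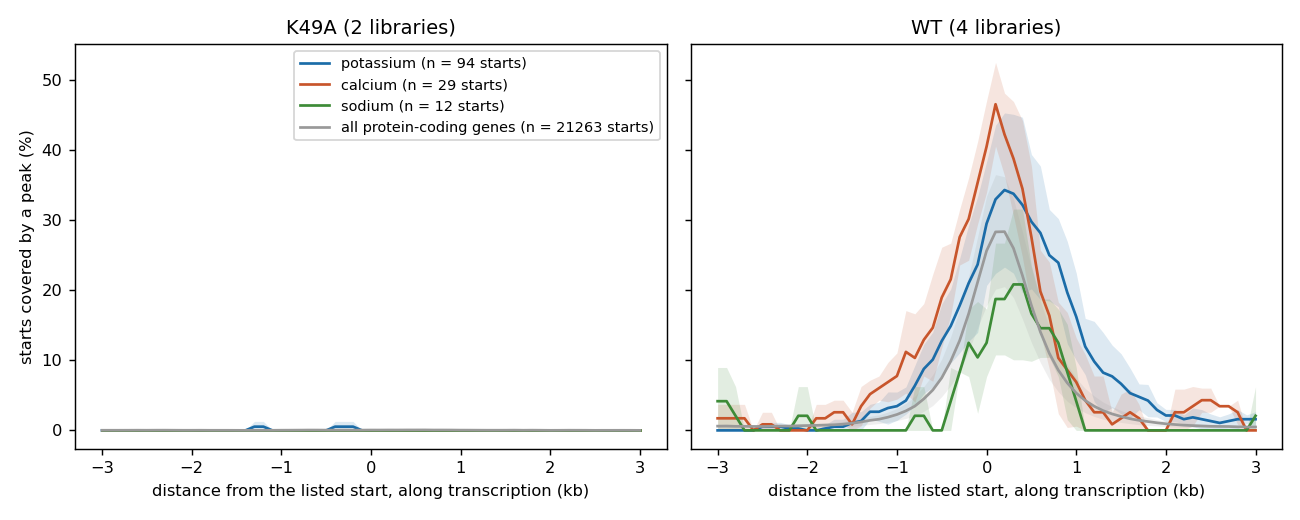
Share of listed starts covered by a peak (percent) against distance from the start along transcription (kb), mean of the libraries with SD as a band, for K49A (left) and WT (right). In WT the channel genes reach 46.6% (calcium), 34.3% (potassium) and 20.8% (sodium) just past the start, and the K49A lines lie at or near 0.

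Coverage of channel gene starts was highest just inside the gene. In K49A it did not pass 0.370% of the 135 starts at any distance out to 3 kb. In WT it reached 34.6% ± 9.14 of starts at 100 bp past the start (SD, n = 4) and was 0.741% at 3 kb before and 1.30% at 3 kb after it. For all genes the highest WT coverage was 28.4% ± 7.84 at 200 bp past the start. Calcium starts reached 46.6% ± 5.97 at 100 bp, potassium starts 34.3% ± 11.0 at 200 bp and sodium starts 20.8% ± 10.8 at 300 bp, with 29, 94 and 12 starts behind these values.

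The number of CG, and with it GC percent, was higher at starts with peaks in more WT libraries. Starts were sorted by the number of WT libraries with a peak within 1 kb. The 300-base promoter held a median of 25.5 CG at the 48 channel starts with a peak in all 4 WT, 11.5 at the 36 with a peak in 1 to 3 and 5 at the 51 with none, against 26, 19 and 3 over all protein-coding genes. The 48 ranged from 3 to 63 CG, so many CG were not common to all of them. Median GC percent of the channel starts was 66.8%, 58.3% and 51.3% in the same order. A GC box, GGGCGG or CCGCCC (the same motif on either strand, and CG is its own reverse complement), was found in 62.5%, 52.8% and 23.5% of these channel starts, against 76.2%, 59.8% and 17.6% over all genes. Over all starts whatever their peaks, 45.2% of channel and 46.2% of all promoters held the GC box. With 25 CG or more, 26 of 30 channel starts had a peak in all 4 WT libraries, where 51.6% of all such starts did, and none of the 30 was without a WT peak, where 3.71% of all were. With 15 to 24 CG, 10 of 22 had one in all 4 WT (27.9% of all) and 2 had none (13.7% of all). With 5 to 14 CG, 9 of 50 had one in all 4 WT (12.2% of all) and 25 had none (49.7% of all). These 50 starts belong to 46 genes, and nearby starts of a gene can share a peak. Starts of Kcnc2 with 5, 5 and 6 CG were among the 9. With 0 to 4 CG, 3 of 33 had one in all 4 WT (1.66% of all) and 24 had none (87% of all). Those 3 were starts of Kcnab1, Kcnk2 and Kcnq5. Kcnk2 had other listed starts with 33 CG each, also with a peak within 1 kb in all 4 WT, so these starts may share a peak. At Kcnq5 the listed start is the outer end of the gene, and the WT peaks lay inside it, for example at chr1:21960890-21962372 in WT 4. Another listed start of Kcnq5, also with a peak within 1 kb in all 4 WT, held 20 CG.

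**Figure D4:**
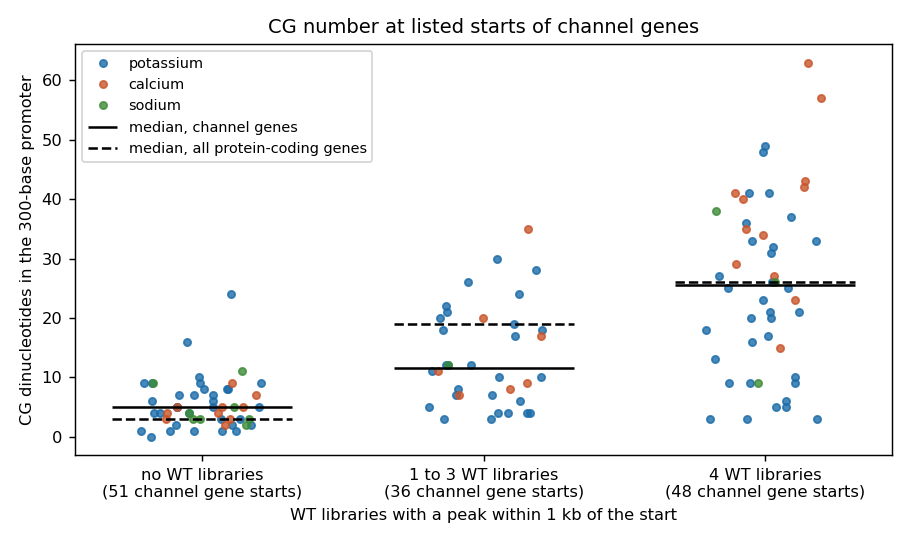
Number of CG dinucleotides in the 300-base promoter of each listed start of a channel gene, sorted by how many WT libraries had a peak within 1 kb; points are starts, coloured by class, solid lines the median of channel genes and dashed lines that of all protein-coding genes. The channel medians are 5, 11.5 and 25.5 CG from no WT library to 4.

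Channel genes are long, and length moved with both kinds of peak. Their median length was 42.7 kb, with 32.5 kb for potassium, 104 kb for calcium and 103 kb for sodium genes, against 17.2 kb for all protein-coding genes. Genes of 100 kb or more were 32.3% of members and 11.1% of all genes. End peaks were therefore also read within length strata. Under 10 kb, 46.4% ± 16.2 of 21 channel genes, all of them potassium genes, had an end peak in WT, against 27.9% ± 7.46 of all genes, a difference of 18.5 ± 11.1 points that was above 0 in 4 of 4 libraries (SD, n = 4). From 10 to 30 kb the difference was 2.34 ± 4.74 points, from 30 to 100 kb 1.46 ± 5.88 points and from 100 kb upward -2.04 ± 2.66 points, each smaller than the spread between libraries. Within these strata potassium genes of 30 to 100 kb differed from all genes of that length by 5.79 ± 5.5 points, above 0 in 4 of 4 libraries. The 4 sodium genes of 10 to 30 kb, all of them beta subunit genes, differed by 26.4 ± 4.0 points, above 0 in 4 of 4. The 3 of 30 to 100 kb, all of them pore genes, differed by -21.5 ± 10.4 points, above 0 in 0 of 4. Those 3 had an end peak at 1 gene in every WT library, 33.3% ± 0, so the SD of that difference is the SD of all genes. Sodium genes of 100 kb or more, 7 in number, had end peaks in WT at 28.6% ± 0, against 60.2% of all genes of that length, a difference of -31.6 ± 8.53 points that was below 0 in every WT library. Here too the SD of the difference is the SD of all genes.

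**Figure D5:**
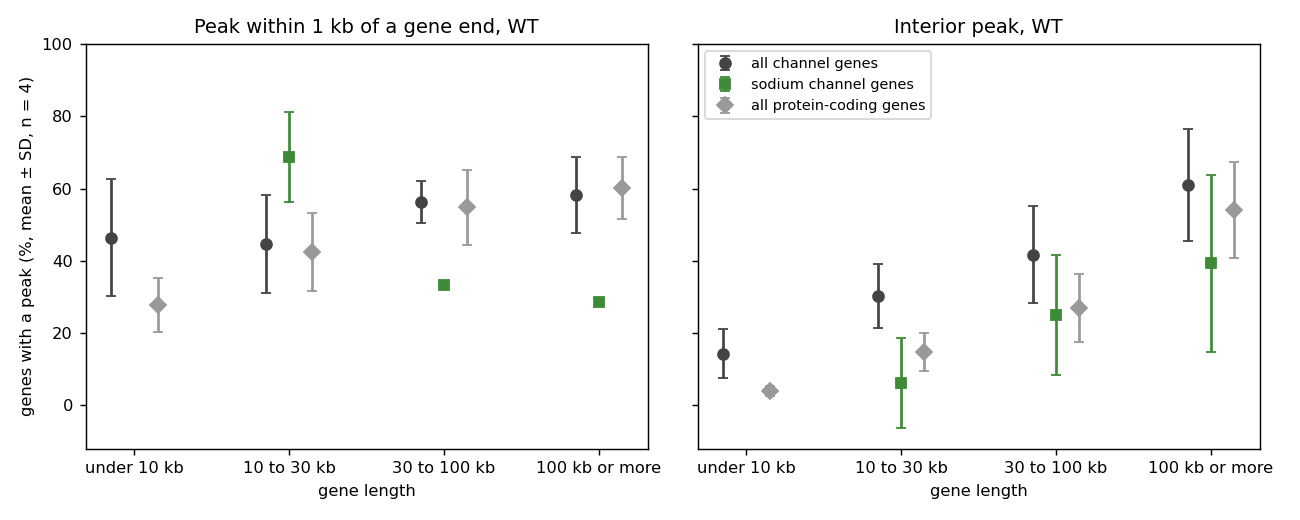
Share of genes with an end peak (left) and an interior peak (right) in WT by gene length, mean and SD over 4 libraries, for channel genes, sodium channel genes and all protein-coding genes. For end peaks the channel and all-gene points lie within 2.34 points of each other from 10 kb upward, and the sodium genes of 100 kb or more lie at 28.6%.

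Interior peaks stood at 2 and 3 members in K49A 1 and 2, where 0.841% and 1.31% of all genes had one. In WT 1 to 4 they stood at 38, 53, 55 and 71 members, where 10.8%, 17.8%, 19% and 24.8% of all genes had one. The share of members was 1.88% ± 0.53 in K49A (n = 2) and 40.8% ± 10.2 in WT (SD, n = 4), against 1.08% ± 0.33 and 18.1% ± 5.75 of all genes. By class it was 41.1% ± 7.92 of potassium, 47.1% ± 17.6 of calcium and 26.8% ± 12.2 of sodium genes in WT. Calcium minus sodium was 20.3 ± 8.31 points and potassium minus sodium 14.3 ± 5.57 points, both above 0 in 4 of 4 libraries, and potassium minus calcium was -5.99 ± 9.86 points. Per length of gene the channel genes did not stand above the others. Channel genes held 0.151 interior peaks per Mb in K49A and 5.90 ± 2.42 in WT, against 0.295 and 6.12 ± 2.57 over all genes. The share of genes with an interior peak was still above that of all genes of like length in every stratum and every WT library, by 10.3 ± 6.30, 15.5 ± 5.91, 14.7 ± 6.02 and 7.02 ± 4.19 points from the shortest stratum to the longest.

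Each WT library and no K49A library had an interior peak at 24 members, where 5.99% of all genes did, and all 4 WT, whatever the K49A libraries had, at 27, where 6.86% of all genes did. At 10 members an interior peak stood in all 4 WT libraries and no end peak in any library, where 2.92% of all genes showed this. They were Kcna2, Kcnj3, Kcnk1, Kcnk2, Kcnk13, Kcnn1, Cacna1c, Cacna1d, Cacna1s and Cacnb3. Kcnk2, Kcnk1 and Kcnk13 are leak channels, and Cacna1c, Cacna1d and Cacna1s are the L-type calcium pores of heart, neurons and skeletal muscle. For 8 of the 10 an inner start listed in the promoter table had a peak within 1 kb in all 4 WT libraries, for Kcnj3 in 3, and for Cacna1s none was found at a listed start.

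Merged over libraries, interior peaks made 246 regions in 90 members, of which 171 were called in 1 library and 23 in all 4 WT. By number of WT libraries, from 1 to 4, members had 167, 32, 20 and 23 regions. All genes had 11043, 2127, 1383 and 1255, a like split. Among members with a listed start, 13 of 18 regions called in all 4 WT lay within 1 kb of such a start of their own gene (72.2%), against 8 of 127 regions called in 1 WT library (6.30%). Over all genes these shares were 49.9% and 8.22%. A region is the union of its libraries' peaks, so one from 4 libraries is wider by construction, with a median of 1494 bp against 288 bp, and reaches further toward a start. At Cacna1c a region at chr6:119107328-119108821, near an inner start, had no K49A peak and WT folds of 4.22, 3.57, 3.14 and 3.39. At Cacna1d a region at chr14:30353259-30354107, also near an inner start, had no K49A peak and WT folds of 5.15, 3.99, 4.53 and 4.71. At Kcnip1, whose product is a calcium sensor that joins Kcnd pores, chr11:33842742-33844332 had no K49A peak and WT folds of 4.63, 4.06, 3.95 and 3.79.

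The most interior peaks lay in Cacna1c, in Cacna1a, the pore of the P/Q-type current at nerve terminals, and in Kcnip1 and Scn8a. None of these had an interior peak in K49A. Cacna1c held 2, 6, 6 and 12 in WT 1 to 4, Cacna1a 1, 5, 2 and 10, Kcnip1 3, 3, 6 and 5, and Scn8a 3, 5, 5 and 4. Kcnip1 and Scn8a were tied at 17 in all. The order of the WT libraries differed between these genes, and for Cacna1c and Cacna1a WT 4, the longest list, held the most.

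At least 1 K49A library had an interior peak at 5 members, beside 1.78% of all genes. These 5 peaks were narrow, and 1 of them lay on a WT region. Kcnj6, a G-protein-gated inward rectifier, had a 219 bp peak at chr16:94812655-94812873 in K49A 1 with a fold of 4.53 and none there in K49A 2, and WT folds there were 4.93, 7.43, 5.92 and 5.31. It was the only interior region of a member called in K49A and in all 4 WT. Kcnk2, a leak channel opened by stretch, had a 242 bp peak in K49A 1 with a fold of 3.49. In K49A 2 there was a 278 bp peak in Cacna1e, the pore of the R-type current, with a fold of 2.98, a 224 bp peak in Cacna1d with a fold of 2.82, and a 257 bp peak in Cacng2, the gene altered in the stargazer mouse, with a fold of 3.16. No WT peak overlapped any of these 4. Each was called in 1 K49A library, so they have no replicate.

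The imprinted members Kcnq1 and Kcnk9 are expressed from the maternal copy in at least some tissues. Kcnq1, which makes the slow repolarising current of the heart, had no K49A peak at its ends and WT folds of 3.18, 3.48, 3.79 and 3.05. Inside it a region at chr7:143295254-143297290, within 1 kb of an end of Kcnq1ot1, the antisense RNA made from the paternal copy, had no K49A peak, WT folds of 2.84, 2.56 and 2.46 in WT 1 to 3 and none in WT 4. Close by, WT 4 had a separate peak at chr7:143298108-143298730 with a fold of 2.33. Kcnk9, a leak channel, had no K49A peak at its ends and WT folds of 2.55, 2.51 and 2.62 in WT 1, WT 2 and WT 4. WT 3 also had a peak there, with a fold of 2.89, in the region chr15:72546467-72547589 merged from peaks of WT 1 and WT 3, but it stopped short of the end window and was counted as interior.

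Genes that work with these channels but have other names were read the same way from a list of 33, of which 31 were in the table. It held the pacemaker channels (Hcn), the sodium leak channel with its partners, cyclic-nucleotide-gated channels, and regulators such as Stac and the intracellular Fgf genes. End peaks stood in each WT library and in no K49A library at 8 of the 31, in 1 to 3 WT libraries at 11 and in no library at 12, a mean of 44.4% ± 9.63 per WT library, beside 42.0% ± 9.23 of all genes (SD, n = 4). They included Amigo1, Fgf11, Hcn2, Hcn4, Stac, Stac2 and Unc80. Among all genes 21.8% had end peaks in each WT library and in no K49A library, and 40.1% in no library. The counts of the 31 were near these shares. Amigo1, a partner of Kcnb pores, had no K49A peak and WT folds of 6.46, 3.41, 5.18 and 4.21. Interior peaks stood at 40.3% ± 15.0 of the 31 per WT library, beside 18.1% ± 5.75 of all genes. Some of the 31 are very long, such as Dpp10 at 1514 kb and Dpp6 at 910 kb, and the part of length in this share was not tested.

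End peaks of channel genes had folds like those of other genes. The median fold of the best end peak was 3.33, 2.95, 2.95 and 2.92 for members in WT 1 to 4, against 3.26, 2.97, 3.00 and 2.99 for all genes with one. Few of them were shared with the end of another gene, 4% to 6.76% of the members' best end peaks in WT, against 20.5% to 23.2% over all genes. Members that shared one did so with Trappc1 (Kcnab3), Rpl19 (Cacnb1), Dcaf7 (Kcnh6) and Nphp4 (Kcnab2), among others.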

How the data were processed

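Peaks of 6 sperm MNase-seq libraries (2 K49A, 4 WT) were used as the authors deposited them, with groups and replicate numbers taken from the sample titles, where K49A appears as MT. The submitters' processing notes name the peak caller MACS2, the build mm10, and also SAMtools, Picard, BWA and FastQC. Their versions and settings, and whether the molecular identifiers were used, are not stated. Beside every peak the deposited lists give a fold over background (a ratio), −log10 p and −log10 q values, and a score. The lowest −log10 q was near 1 in every list. The lists hold no read counts, so depth is unknown and no counting error can be given.

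Genes came from a RefSeq table of GRCm38.p6 that gives ends but no strand or exons, so end windows cover both ends of a gene. Starts and strands came from a RefSeq promoter table, which matched 99 of 133 members. Overlaps were computed with python 3.11.15, numpy 2.4.6, pandas 2.3.3 and scipy 1.17.1, and checked on simulated peaks. Shares are means ± SD over libraries, with no p for sums over members. Covered length per gene was tested by an exact permutation test over libraries with Benjamini-Hochberg adjustment. Alternatives were windows of 0.5 and 2 kb, peak midpoints, stricter thresholds, equal numbers of peaks, unshared peaks, a replicate block and leaving out each library.

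Named genes were the first 10 potassium, 6 calcium and 4 sodium genes by mean percentile of the best end peak among those with end peaks in all 4 WT and neither K49A library, all members with a K49A peak, the 3 with most interior peaks in WT, and the imprinted Kcnq1 and Kcnk9. Values of some of these genes are not reported here. The members, lists and rules were chosen with earlier results of these data known. The measures at listed starts, inner starts and CG strata were added after results were seen.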

Additional observations from a re-analysis of the deposited data

Results flagged for a closer look

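Of 34 groups of 4 WT libraries examined, 4 had a value set apart from the other 3 by its gap. Chance flags about 1 group in 20. WT 1, the shortest WT list, had end peaks at 36.6% of potassium channel genes, against 57.0%, 58.1% and 60.2% in the other WT libraries, and at 35.7% of sodium channel genes, against 42.9% in each of the others, a gap of 1 gene. At Kcnc4 the best end peak of WT 1 had a fold of 3.25, against 2.76, 2.82 and 2.76. At Cacna2d3 the best end peak of WT 2 had a fold of 3.10, against 2.92, 2.92 and 2.93.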

How the results depend on the processing

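Of 95 alternative values, 73 kept their direction within the spread between libraries (counts within 1.5 times), 19 moved by more than that without changing sign and 3 changed sign. Leaving out each library in turn kept every sign: K49A minus WT ranged from -56.6 to -49.1 percentage points for end peaks and from -43.0 to -34.7 for interior peaks, the count of members with end peaks in all 4 WT and neither K49A library from 43 to 62 (a library fewer has to agree), and channel minus all genes in WT from 9.48 to 11.0 points for end and from 20.8 to 24.4 for interior peaks. Between classes, potassium minus calcium ranged from -6.44 to -2.03, potassium minus sodium from 10.1 to 15.6 and calcium minus sodium from 12.1 to 18.7.

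Sign changed for potassium minus calcium with a 2 kb window (1.94 points), and for potassium minus sodium (-4.99) and calcium minus sodium (-3.30) with each list held to its 700 strongest peaks. Those 700 peaks also gave K49A minus WT of -2.63 (ends) and -1.69 (interior), a count of 0, and channel minus all of 1.21 and 2.21. A −log10 p of at least 6 gave -19.5 and -10.5, a count of 8, 6.53 and 7.48, and potassium minus sodium of 2.48. A −log10 q of at least 2 gave -37.4 and -24.1, a count of 24, and 14.9 for interior channel minus all. For end peaks, channel minus all was 13.3 with a 2 kb window, 8.29 by peak midpoints and 16.8 without shared peaks. Covered length called 69 members where end peaks called 42. Fewer peaks enter at every stricter threshold by construction; the cause of the other changes was not tested. Unknown depth limits all K49A values.

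With the replicate number as a block, K49A minus WT was -46.2 points for end and -32.3 for interior peaks. No label says that a shared number marks shared animals or days, so the samples share only a number. Deviations of same-numbered libraries correlated across genes at 0.0197 and -0.000487, which says little because K49A peaks cover few genes.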
